A study of Homo sapiens with 6 samples.

Results

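The mitochondrial ribosomal protein (MRP) genes were taken as the protein-coding genes of the GENCODE annotation on hg19 whose symbols are MRPL or MRPS followed by a digit. There were 78 such genes among 19785 protein-coding genes, 49 with an MRPL symbol for the large subunit and 29 with an MRPS symbol for the small subunit. Myc chromatin immunoprecipitation sequencing (ChIP-seq) was compared between 2 groups of MDA-MB-231 cells, a human line of triple-negative breast cancer. The parental group was the unedited line, and the TKO group was the same line with TXNIP, the thioredoxin-interacting protein, knocked out by CRISPR-Cas9. Both were grown in the same DMEM medium with serum and had no other treatment named in the labels. The study's methods state that the knockout clones were isolated from single cells, so loss of TXNIP and the choice of clone cannot be told apart. The peak lists hold DNA binding and no RNA or protein, so the knockout could not be checked in them. Each group had 2 Myc libraries, called parental 1, parental 2, TKO 1 and TKO 2 by the replicate numbers of the titles, and each library had a peak list of its own. The question was at which of these promoters Myc was called in parental cells and at which in TKO cells.

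Mitochondria keep a ribosome of their own, which translates the few proteins encoded in mitochondrial DNA, all of them parts of the oxidative phosphorylation machinery. Its RNA comes from mitochondrial DNA, but every one of its proteins is encoded in the nucleus, made in the cytosol and imported. Myc is a transcription factor that binds DNA as a heterodimer with Max, preferably at the E-box CACGTG, and genes for ribosomes and mitochondria are among its known targets.

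The lists differed in length before any gene was considered, and the MRP counts have to be read against that. They held 3720 and 5719 peaks in parental 1 and 2 and 27213 and 25887 peaks in TKO 1 and 2. The depth recovered from the lists was 26.4, 22.2, 19.9 and 13 M reads (M, mega) in the same order, less in TKO than in parental cells. The peak with the fewest reads at its summit had 0.492 and 0.451 reads per M in the parental lists and 0.451 and 0.537 in the TKO lists, and a promoter below such a level could not have been listed. The extension length was 140 bp in parental 1, 151 bp in parental 2, 182 bp in TKO 1 and 201 bp in TKO 2, and a longer extension by itself raises the reads counted over a summit.

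A promoter peak was a peak whose summit, its highest point, lay no more than 1 kb from a TSS (transcription start site) of the gene. Promoter peaks were found at 32 MRP genes in parental 1, at 27 in parental 2 and at 77 in each TKO library. The shares were 41% and 34.6% in parental cells and 98.7% in both TKO libraries. Among all protein-coding genes the shares were 12.2% in parental 1, 12.9% in parental 2, 49.1% in TKO 1 and 49.7% in TKO 2. The MRP share was therefore above that of all genes in each library, and the TKO count was above the parental count in every pair of libraries. The mean was 29.5 ± 3.54 genes (SD, n = 2) in parental cells and 77 ± 0 (SD, n = 2) in TKO, a ratio of 2.61. The exact two-sided permutation test gave p = 0.333, which is the smallest value that 2 libraries against 2 allow, so no such test here could show a difference on its own.

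The difference was smaller with lists of equal length. With each list limited to its 3720 peaks of highest −log10 p-value, MRP genes had promoter peaks at 32, 20, 37 and 36 genes in parental 1, parental 2, TKO 1 and TKO 2. These were 41%, 25.6%, 47.4% and 46.2% of the 78 genes, against 12.2%, 9.07%, 13.3% and 13.6% of all protein-coding genes in the same lists. The ratio of the TKO mean to the parental mean was then 1.4. The MRP share stayed above the share of all genes in every library at equal length.

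**Figure D1:**
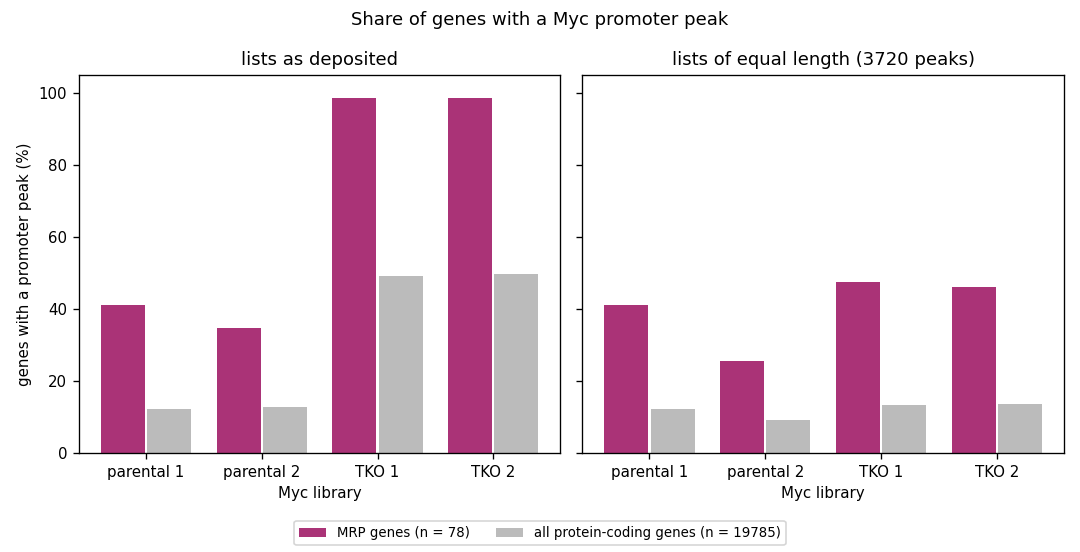
Share of genes with a Myc promoter peak (y axis, percent) in each Myc library (x axis), for the 78 MRP genes and for all 19785 protein-coding genes, with the lists as deposited on the left and with 3720 peaks a list on the right. Each bar is 1 library, so there is no error bar. The MRP bars reach 98.7% in both TKO libraries with the lists as deposited and 47.4% and 46.2% with equal lists.

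The 78 genes fell into few patterns over the 4 libraries. A peak in all 4 libraries was found at 22 genes (28.2%, against 9.32% of all protein-coding genes). They were MRPL1, MRPL3, MRPL15, MRPL17, MRPL18, MRPL20, MRPL24, MRPL27, MRPL40, MRPL42, MRPL43, MRPL45, MRPL48, MRPL49, MRPS7, MRPS15, MRPS16, MRPS17, MRPS18B, MRPS25, MRPS33 and MRPS35. A further 15 genes (19.2%, against 6.16% of all genes) had a peak in both TKO libraries and in 1 parental library. In 10 of these the parental peak was in parental 1, namely at MRPL12, MRPL13, MRPL30, MRPL32, MRPL38, MRPL51, MRPL52, MRPL57, MRPL58 and MRPS2. In the other 5 it was in parental 2, at MRPL54, MRPS14, MRPS23, MRPS28 and MRPS34.

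Both TKO libraries and neither parental library had a peak at 39 genes (50%, against 29.8% of all genes). The large-subunit symbols among them were MRPL2, MRPL4, MRPL9, MRPL10, MRPL11, MRPL14, MRPL16, MRPL19, MRPL21, MRPL22, MRPL23, MRPL28, MRPL33, MRPL34, MRPL35, MRPL36, MRPL37, MRPL39, MRPL41, MRPL44, MRPL46, MRPL47, MRPL50, MRPL53 and MRPL55. The small-subunit symbols were MRPS5, MRPS6, MRPS9, MRPS10, MRPS11, MRPS12, MRPS18C, MRPS21, MRPS24, MRPS26, MRPS27, MRPS30, MRPS31 and MRPS36. MRPS36 is also known as KGD4 and is assigned to the oxoglutarate dehydrogenase complex, and MRPS18A and MRPS30 sit in the large subunit despite their symbols. Every MRP gene with a parental peak had one in both TKO libraries, so no gene of the family was listed in parental cells alone. The same held at nearly all protein-coding genes with a parental peak. Of 2418 such genes in parental 1 and 2550 in parental 2, 1843 had a peak in all 4 libraries. A further 560 and 659 had one in that parental library and both TKO libraries.

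Each TKO list lacked a promoter peak at 1 MRP gene, and it was not the same gene. MRPS22, a small-subunit protein with no bacterial counterpart, had a peak in TKO 1 and none in TKO 2. MRPS18A had a peak in TKO 2 and none in TKO 1. A peak in a single TKO library and no parental library was thus found at 2 genes (2.56%, against 8.20% of all genes). Every MRP gene had a promoter peak in at least 1 library, whereas 46.3% of all protein-coding genes had one in none. The MRPS22 peak in TKO 1 had 21 summit reads, or 1.05 reads per M, 182 bp upstream of its TSS. In TKO 2 the summit nearest to MRPS22 was 14605 bp away. The MRPS18A peak in TKO 2 had 31 summit reads, or 2.38 reads per M, 245 bp downstream of the TSS within an intron of the gene. In TKO 1 the summit nearest to MRPS18A was 15321 bp away.

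**Figure D2:**
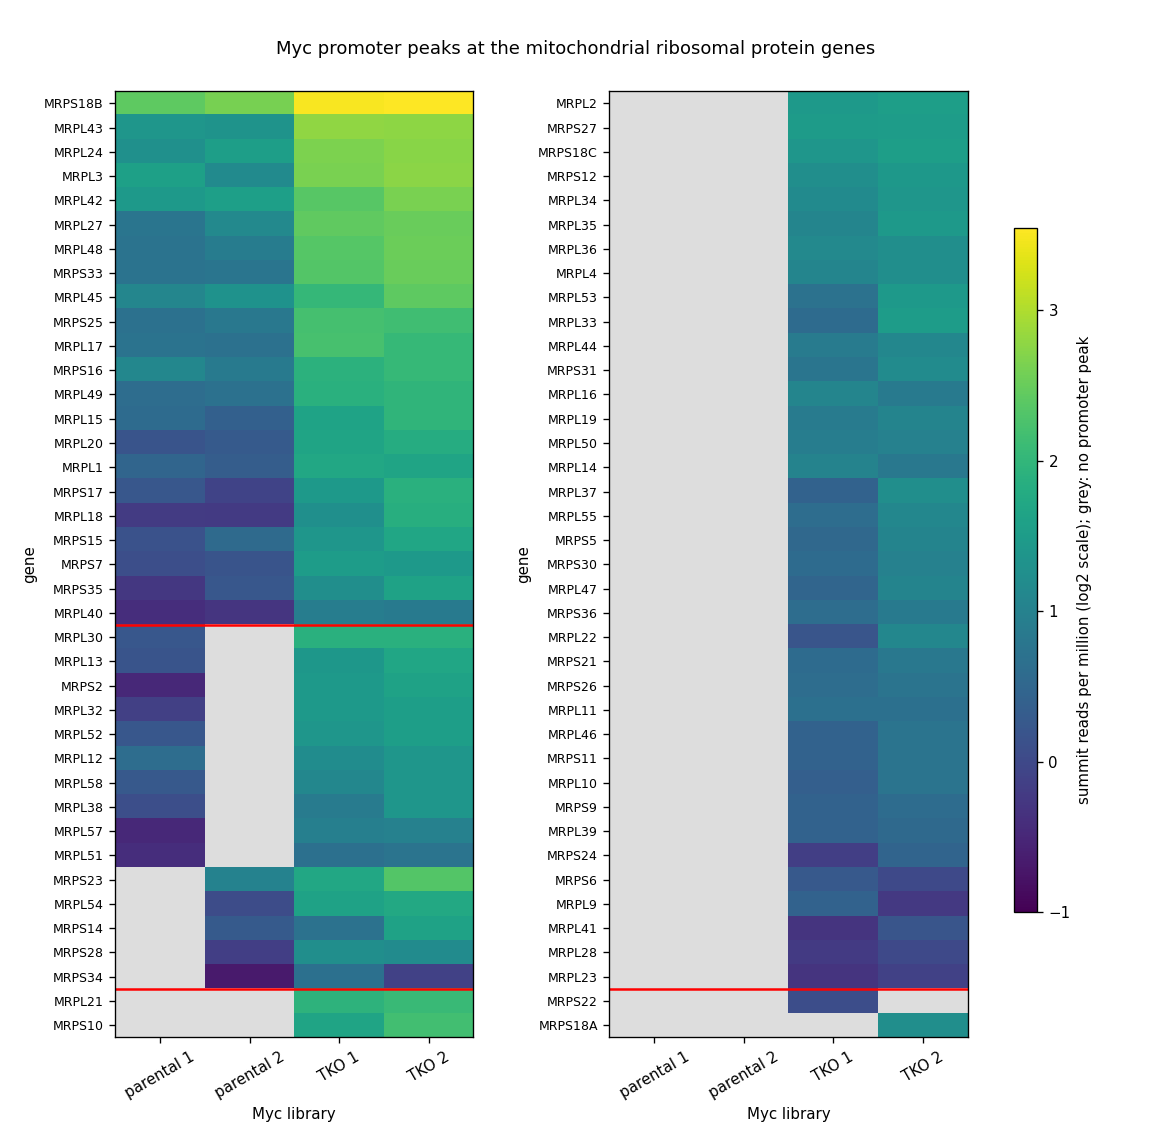
Reads per M at the summit of the strongest promoter peak of each of the 78 MRP genes, on a log2 colour scale, in parental 1, parental 2, TKO 1 and TKO 2 (columns). Grey cells had no promoter peak, and red lines separate the 22 genes with a peak in all 4 libraries, the 15 with 1 parental and both TKO libraries, the 39 with both TKO libraries alone, and the last 2, each with a peak in 1 TKO library.

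The summit position can be set beside the sequence there. For the genes of highest rank with a peak in all 4 libraries, windows of 30 bases were read from GRCh37 in the direction of the gene, to show which of the searched motifs lay near the TKO 1 summit. A window was centred on the first of these found within 100 bp, namely the E-box, its variant CACGCG, ETS (CCGGAAGT), YY1 (AAGATGGCG) and NRF1 (GCGCNTGCG), in either orientation. Capitals mark the match, and a window without capitals is centred on the summit itself and had none of the 5 motifs. MRPL15 was also among these genes of highest rank and is not shown. It had an E-box within 50 bp of its summit in both parental libraries and in neither TKO library.
MRPL3, chr3:131221732-131221761, minus strand, E-box: ggctactgcgtcCACGTGgcggtggcgtgg
MRPS18B, chr6:30585328-30585357, plus strand, NRF1: aaacctaagaGCGCATGCGcactgagagga
MRPL42, chr12:93861417-93861446, plus strand, no match: ccgcctgtcgttcccggcagggcgaggttg
MRPL43, chr10:102747338-102747367, minus strand, no match: ttttctctctcccacttcgccggcaacgtg
MRPL24, chr1:156710840-156710869, minus strand, no match: atccgaagtgccgcggaaagtggaggtgag
MRPL40, chr22:19419871-19419900, plus strand, E-box variant: aggaccccgagcCGCGTGaaacgcaaggcc
MRPL48, chr11:73499043-73499072, plus strand, E-box variant: gtagattccacgCACGCGgggcgcggggag
MRPL27, chr17:48450535-48450564, minus strand, ETS: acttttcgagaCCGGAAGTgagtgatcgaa
MRPS16, chr10:75012386-75012415, minus strand, no match: tggcgagcggatcatccgcttccggagtcg

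MRPL3, a conserved large-subunit protein, had the highest mean rank of the family. Its peak spanned chr3:131221255-131222067 in TKO 1, and the summits of the 4 libraries lay 42 to 95 bp downstream of its TSS, in its untranslated region (UTR). The E-box shown above was 26 bp from the TKO 1 summit. Summit reads per M were 2.99 in parental 1, 2.25 in parental 2, 6.22 in TKO 1 and 6.75 in TKO 2, so both TKO values exceeded both parental ones. Ranked by the authors' fold, which divides the reads at the summit by the local background, it was peak number 72 and 198 of the parental lists and number 13 and 6 of the TKO lists. Its fold was 13.4, 10.2, 36.5 and 45.2 in the same order. No other MRP peak reached either TKO value.

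MRPS18B, 1 of 3 relatives of bacterial S18, had the most summit reads of the family in every library. There were 5.34 and 6.13 reads per M in parental 1 and 2 and 11.3 and 11.7 in TKO 1 and 2. The peak was also wide, at 1106, 1084, 1652 and 1454 bp. Its summit lay 170 to 222 bp upstream of the MRPS18B TSS, within an intron of PPP1R10, a phosphatase regulatory subunit transcribed the other way from a TSS 597 bp away. The fold did not set MRPS18B apart to the same degree, at 12.9, 13.8, 16.2 and 14. The other relatives of S18 differed from it. MRPS18C had no parental peak, with 2.61 and 2.91 reads per M in TKO 1 and 2, and MRPS18A was listed in TKO 2 alone.

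The next genes by rank were large-subunit proteins. MRPL42 had 2.76, 2.97, 5.16 and 6.21 reads per M in parental 1, parental 2, TKO 1 and TKO 2, with summits 138 to 199 bp into the gene. MRPL15 had 1.51, 1.31, 3.11 and 3.91, with summits between 27 bp upstream and 53 bp downstream of the TSS. MRPL43 had 2.61, 2.52, 6.92 and 6.83, and its summits lay in the UTR of TWNK, the gene of the mitochondrial DNA helicase Twinkle, which starts 21 bp away on the opposite strand. In all of them the lower TKO value was above the higher parental value.

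MRPL24 had 2.42, 2.93, 6.32 and 6.67 reads per M, and its summits were within 25 bp of the TSS in every library. MRPL40 had much lower reads, at 0.757, 0.811, 1.91 and 1.84 per M, and a low local background of 1.68, 2, 2.42 and 1.58 reads. Its fold was 6.62, 6.32, 11.4 and 9.68, which set its rank. MRPL48 and MRPL27 had more reads in both TKO libraries than in either parental one. MRPL48 had 1.67, 1.89, 5.11 and 5.75 reads per M, and MRPL27, whose bacterial counterpart reaches into the peptidyl transferase centre, had 1.7, 2.21, 5.41 and 5.68. The percentile of MRPL27 within its list, on a scale where 100 is the strongest peak, was 33.6 in parental 1, 71.4 in parental 2, 99.2 in TKO 1 and 98.7 in TKO 2. A percentile depends on the length of its list, and the same rank gives a higher percentile in the longer TKO lists. MRPL27 was peak number 2467 and 1632 by fold in the parental lists and number 222 and 346 in the TKO lists, and MRPL48 was number 1923 and 939 and number 739 and 1877. MRPS16, a small-subunit protein, had 2.16, 1.8, 3.81 and 4.14 reads per M, and its summits were between 16 bp upstream and 30 bp downstream of the TSS.

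Other genes with a peak in all 4 libraries had lower percentiles in the parental lists. MRPS7, a small-subunit protein, was at the 0.444 and 1.14 percentile in parental 1 and 2 and at 73.7 and 79.6 in TKO 1 and 2. Its reads were 1.06, 1.13, 2.86 and 2.76 per M. MRPL49 was at percentile 24 and 0.883 in the parental lists and 87.5 and 83 in the TKO lists, with 1.55, 1.62, 3.71 and 3.91 reads per M. By rank the libraries of these genes overlapped. MRPS7 was peak number 3702 and 5651 in the parental lists and 7154 and 5263 in the TKO lists, and MRPL49 was number 2826 and 5668 and number 3395 and 4403.

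MRPS17, MRPS25 and MRPS35 are small-subunit proteins with the same order of values. MRPS17 had 1.17, 0.947, 2.76 and 3.68 reads per M in parental 1, parental 2, TKO 1 and TKO 2. MRPS25 had 1.63, 1.76, 4.61 and 4.45, and its percentile was 17.3 and 16.4 in the parental lists and 98.6 and 96.8 in the TKO lists. MRPS35 had 0.833, 1.17, 2.36 and 3.07. In each the parental values did not overlap the TKO values. MRPL45, which helps to anchor the ribosome at the inner membrane, had more reads than these in parental cells, at 2.12 and 2.48 per M, with 4.06 and 5.37 per M in TKO 1 and 2. Its percentile was 22.5, 47.2, 74.7 and 93.2.

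Over the 22 genes with a peak in all 4 libraries, the median was 1.65 and 1.67 summit reads per M in parental 1 and 2 and 3.94 and 4.14 in TKO 1 and 2. The means of these medians were 1.66 ± 0.0153 (SD, n = 2) and 4.04 ± 0.146 (SD, n = 2), a ratio of 2.44 (exact permutation p = 0.333, the smallest possible). Both TKO libraries were above both parental libraries at 22 of the 22 genes. The same held at 99.0% of all protein-coding genes with a peak in all 4 libraries, so the direction was no different at the MRP genes. The ratio of the TKO mean to the parental mean ran from 1.98 at MRPL42 to 3.48 at MRPL18, with a median of 2.53 over the MRP genes and 2.56 over all genes of that kind. With reads scaled to the shortest extension length the ratio of medians was 1.85.

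**Figure D3:**
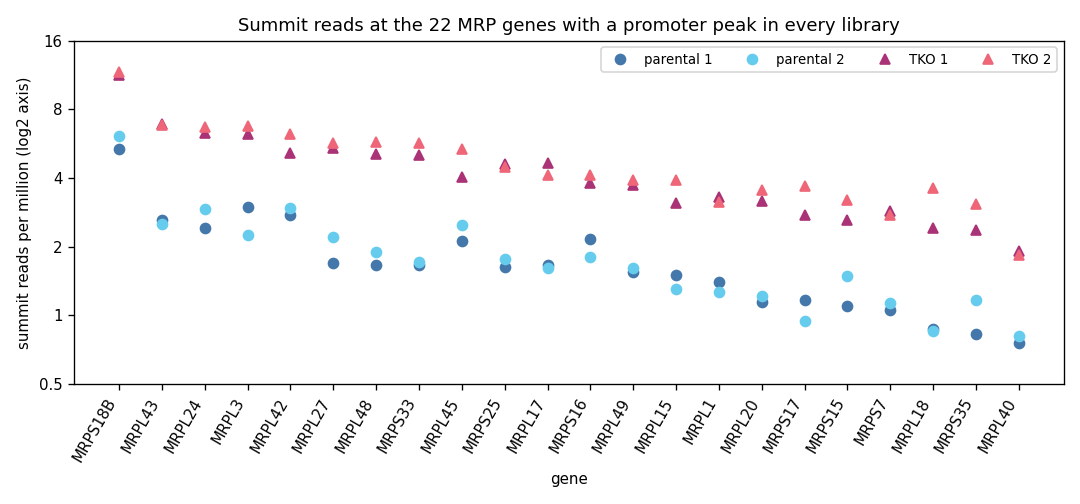
Summit reads per M (y axis, log2 axis) at the 22 MRP genes with a promoter peak in every library (x axis, ordered by mean), with circles for parental 1 and 2 and triangles for TKO 1 and 2. Every triangle lies above both circles of its gene, from MRPS18B at 5.34 and 6.13 against 11.3 and 11.7 to MRPL40 at 0.757 and 0.811 against 1.91 and 1.84.

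Replicate libraries ranked the genes alike in part. Spearman's rho of the percentiles was 0.677 between parental 1 and 2 over the 22 genes and 0.764 between TKO 1 and 2 over 76 genes, given as a description, since the genes of a library share its depth. The widest gap between the parental libraries was at MRPS15, at percentile 19 in parental 1 and 92.2 in parental 2, although its reads were 1.1 and 1.49 per M. The widest gap between the TKO libraries was at MRPL57, at percentile 88.2 in TKO 1 and 27.9 in TKO 2 with 1.96 and 1.99 reads per M. The local background was 5 and 3 reads at MRPS15 in the parental libraries and 3.23 and 4.75 at MRPL57 in the TKO libraries, so in both cases the library with more background gave the lower percentile.

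The genes with a peak in 1 parental library had medians there slightly below those of all peaks of the list, which were 1.25 reads per M in parental 1 and 1.22 in parental 2. Those in parental 1 had between 0.719 and 1.55 reads per M there, with a median of 1.1, and those in parental 2 had between 0.631 and 2.03, with a median of 1.04. In TKO 1 and 2 the 15 genes had medians of 2.36 and 2.91 reads per M. MRPS2, a conserved small-subunit protein, had the highest mean percentile of them in TKO, at 97.8 and 95.8. Its strongest peak was 9 bp upstream of the TSS in parental 1, with 0.719 reads per M, and 510 and 525 bp downstream in TKO 1 and 2, with 2.76 and 3.07. MRPS2 had 3 separate promoter peaks in each TKO library and 2 in parental 1, of which the second lay 465 bp from a TSS.

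MRPS28 had 0.901 reads per M in parental 2 and 2.36 and 2.3 in TKO 1 and 2, with summits within 54 bp of the TSS. MRPL54 had 1.04 in parental 2 and 3.06 and 3.37 in TKO. MRPL52 had 1.17 in parental 1 and 2.61 and 2.91 in TKO. At MRPS34, 1 of the 15, the parental 2 value of 0.631 was below 1.6 in TKO 1 and close to 0.92 in TKO 2, where the peak had 12 summit reads.

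The genes with peaks in both TKO libraries alone were mostly not the weak end of the TKO lists. Their median percentile was 66 in TKO 1 and 77.4 in TKO 2, with a range from 5.88 to 97 and from 2.21 to 94. Over all protein-coding genes of the same pattern the medians were 62.6 and 63.3. Over all genes with a promoter peak they were 71 and 70.6, so the 39 genes were below these in TKO 1 and above them in TKO 2. The 22 MRP genes with a peak in all 4 libraries had higher medians, at 94.1 and 95.3. The 39 genes had a median of 1.55 and 2.07 summit reads per M, against 1.35 and 1.69 over all genes of that pattern. Parental peaks in general had medians of 1.25 and 1.22 reads per M. Without scaling for extension length, 33 of the 39 genes in TKO 1 and 34 in TKO 2 were above both. The share above both among all genes of that pattern was not counted. Their medians, 1.35 and 1.69, were above both as well, so the count is not particular to the MRP genes. The extension was longer in TKO, at 182 and 201 bp against 140 and 151 bp, which raises TKO reads. How many genes would stay above after scaling was not counted. Read numbers at these promoters in the parental libraries are not in the peak lists, so the size of the difference at a single gene could not be given.

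MRPS27, which has pentatricopeptide repeats, had the highest mean TKO percentile among the 39, at 97 and 93.3. It had 2.81 and 2.84 reads per M in TKO 1 and 2 and 2 promoter peaks in each. MRPL4, a conserved protein at the exit tunnel, had 2.11 and 2.38 reads per M and percentiles of 94.7 and 94. These are levels at which many genes were listed in parental cells, yet neither parental list had a promoter peak there. MRPL36, a small conserved protein of the large subunit, had 2.21 and 2.38 reads per M, with summits 11 and 12 bp upstream of the TSS.

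MRPS11 and MRPL46 face away from each other with start sites 318 bp apart and shared a single peak in each TKO library. It had 1.35 and 1.69 reads per M, and its summit was 62 and 27 bp from the MRPL46 TSS and 382 and 347 bp from that of MRPS11, so the value belongs to both and is nearer to MRPL46. MRPL44, a large-subunit protein with an RNase III-like domain, had 1.85 and 2.15 reads per M. MRPL19 had 1.85 and 2.07. MRPL21 had 3.86 and 4.22, with its start site 31 bp from that of IGHMBP2, a helicase gene on the other strand. Of the 39, only MRPL21 and MRPS10, with 3.16 and 4.53, had more than 3 reads per M in both TKO libraries.

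The weakest of the 39 by rank were MRPL9, MRPS9, MRPS24 and MRPL11, and their sequences are shown in the same way.
MRPL9, chr1:151735941-151735970, minus strand, no match: tctgtgcctgtgaacatggcggcgcccgtt
MRPS9, chr2:105654756-105654785, plus strand, E-box variant: cccccagcgtctCGCGTGccttcaggcagg
MRPS24, chr7:43908978-43909007, minus strand, E-box variant: tagtttccgcctCACGCGccctccctccac
MRPL11, chr11:66206507-66206536, minus strand, no match: atcaaggtcccaccctactggttagctgtc

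MRPL9 had 1.35 and 0.844 reads per M in TKO 1 and 2, and its summits were 4 and 530 bp from its TSS, so the strongest peak was not at the same place in both libraries. Both summits were nearer to OAZ3, whose TSS is 4 bp from that of MRPL9 on the other strand. MRPS9 had 1.35 and 1.53 reads per M and MRPS24 had 0.902 and 1.38. MRPL11, a protein of the stalk base of the large subunit, was at percentile 5.88 and 2.21. Its reads, 1.6 and 1.61 per M, were above the median of either parental list only as counted without scaling for extension length. The longer extension in TKO raises them, so that comparison does not show a strong peak. Its peak lay 203 and 215 bp upstream of the TSS. MRPL11 was also the only MRP gene whose sequence within 250 bp of the TSS had a CpG ratio, observed over expected CpG, below 0.6, at 0.579.

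With lists of equal length, 6 of the 78 genes had a peak in both TKO libraries and neither parental library. They were MRPL4, MRPL21, MRPL54, MRPS10, MRPS27 and MRPS28, against 1.64% of all protein-coding genes. A peak in all 4 lists was found at 17 genes, against 6.28% of all genes. A peak in parental 1 alone was found at 5 genes, MRPL12, MRPL32, MRPL51, MRPL57 and MRPL58, against 1.52% of all genes. Which MRP genes were listed in TKO alone thus depended on the length of the lists.

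The percentiles of the family as a whole depended on the length of the lists. The median percentile of the MRP promoter peaks was 46 and 65 in parental 1 and 2 and 82.8 and 84.8 in TKO 1 and 2. The difference of the means was 28.3 (exact permutation p = 0.333, the smallest possible). Over all genes with a promoter peak the medians were 56.8, 56.8, 71 and 70.6. With equal lists the MRP medians were 46, 57, 50.5 and 50.6, and the difference turned to −0.938. Peaks in the top decile of a list were found at 15.6% and 18.5% of the MRP genes with a peak in parental 1 and 2 and at 28.6% and 31.2% in TKO 1 and 2. The shares over all genes with a promoter peak were 13.2%, 14.7%, 22% and 20.9%.

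The shares of MRPL and MRPS genes with a peak in all 4 libraries were close. The groups follow the symbols, so MRPS18A, MRPS30 and MRPS36 count as MRPS, although they were named above as lying outside the small subunit. Subunit membership itself was not compared. Of the 49 MRPL genes, 23 and 15 had a peak in parental 1 and 2 and 49 in each TKO library. Of the 29 MRPS genes, 9 and 12 had one in parental cells and 28 in each TKO library. A peak in all 4 libraries was found at 28.6% of MRPL and 27.6% of MRPS genes, a difference of 0.985 percentage points with a 95% Newcombe interval from −20.1 to 19.9. That interval covers counting error only, since genes are not replicates. The difference came to −10.8 percentage points without parental 1 and to 15.9 without parental 2, so the libraries did not give it 1 sign. Proteins with a counterpart in the bacterial ribosome, 48 genes, had a peak in all 4 libraries at 27.1%, and the 30 without one at 30%.

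The peaks sat close to the start sites. The median distance of the summit from the nearest TSS of the gene was 44 and 40 bp in parental 1 and 2 and 42 and 54 bp in TKO 1 and 2. The difference of 6 bp between the means of 42 ± 2.83 and 48 ± 8.49 bp (SD, n = 2) was within the spread of the TKO libraries (exact permutation p = 0.667). Over all genes with a promoter peak the medians were 108, 108, 150 and 146 bp. A summit within 100 bp of a TSS was found at 68.8%, 81.5%, 74% and 70.1% of the MRP genes with a peak, and at 47.8%, 47.8%, 37.8% and 39.1% of all such genes. The summits lay to both sides of the TSS, at 38 genes downstream and 39 upstream in TKO 1. The median width of the MRP peaks was 240, 251, 578 and 595 bp in parental 1, parental 2, TKO 1 and TKO 2, against 243, 241, 468 and 475 bp over all genes, and the longer extension of the TKO reads adds to these widths.

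A few genes had their summits well away from the start site in TKO. MRPL23 had summits 896 and 585 bp downstream in TKO 1 and 2 and MRPL41 406 and 508 bp downstream. At MRPL18 the summits were 192 and 46 bp upstream in parental 1 and 2 and 876 and 883 bp upstream in TKO 1 and 2. The TKO summits were 5 and 12 bp from the TSS of TCP1, a subunit of the cytosolic chaperonin on the opposite strand, and the TKO peaks were 1 block of 1873 and 1914 bp over both genes. The ratio of 3.48 at MRPL18, the highest of the 22 genes, therefore compared different places. Just inside the 1 kb limit were peaks of MRPS30 at 913 bp in TKO 1 and of MRPS6 at 989 bp in TKO 2, and just outside it were further peaks of MRPL41 at 1378 bp in TKO 1 and of MRPL40 at 1364 bp in TKO 2.

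**Figure D4:**
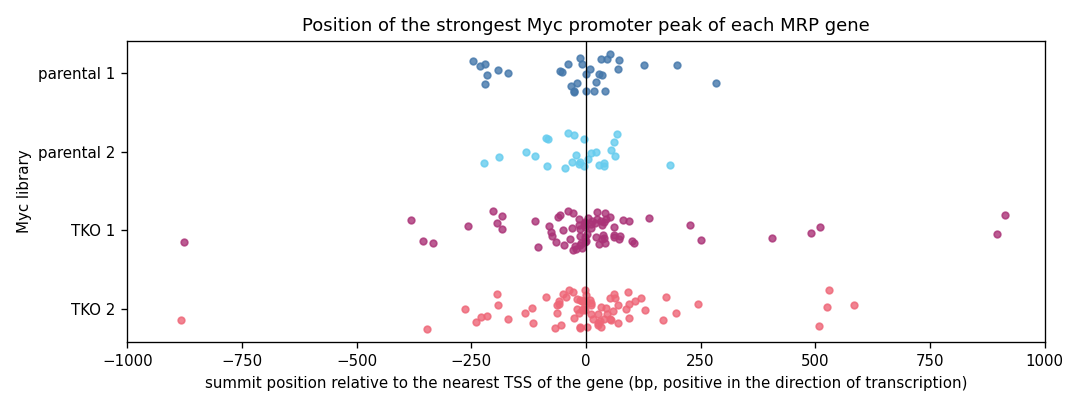
Position of the summit of the strongest promoter peak of each MRP gene relative to the nearest TSS of that gene (x axis, bp, positive in the direction of transcription) in each Myc library (rows, with vertical scatter for legibility). Most points lie within 100 bp of the TSS, 74% in TKO 1 and 70.1% in TKO 2, and the points at −876 and −883 bp are MRPL18 in TKO 1 and 2.

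Many MRP genes share a promoter. Another protein-coding gene had a TSS within 1 kb of a TSS of 33 of the 78 genes (42.3%, against 16.8% of all protein-coding genes), and for 31 (39.7%, against 13.7%) there was such a gene on the opposite strand. The strongest peak served a neighbour as well at 14 and 8 MRP genes in parental 1 and 2 and at 28 in each TKO library. In parental 1, parental 2, TKO 1 and TKO 2 these were 43.8%, 29.6%, 36.4% and 36.4% of the MRP genes with a peak. The same shares over all genes with a peak are not given here. The neighbour was the nearer at 3, 2, 6 and 6 of the MRP genes. A peak shared in this way cannot be assigned to 1 gene. MRPL49 was an example, with summits 3 to 10 bp from the TSS of FAU, which encodes a cytosolic ribosomal protein, and 131 to 264 bp from its own. MRPS6 and SLC5A3, a myo-inositol transporter gene, have the same TSS. Other partners of genes named above or of mitochondrial function were TWNK, NDUFB5 beside MRPL47 and SARS2 beside MRPS12. NDUFS6 has a TSS 41 bp from a TSS of MRPL36, but the strongest MRPL36 peak was not assigned to NDUFS6 in either TKO library.

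The counts without a neighbour were as follows. Among the 45 MRP genes with no neighbour within 1 kb, peaks were found at 18, 18, 44 and 45 genes in parental 1, parental 2, TKO 1 and TKO 2, a ratio of 2.47 between the means. The shares of all protein-coding genes were 12.2%, 12.9%, 49.1% and 49.7%. Of these 45 genes, 33.3% had a peak in all 4 libraries and 51.1% in both TKO libraries alone, and of the 33 with a neighbour 21.2% and 48.5%. Of all genes, with or without a neighbour, 9.32% and 29.8% had these patterns.

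The E-box was not frequent at the MRP summits. CACGTG lay within 50 bp of the summit at 3 of 32 genes in parental 1 (9.38%, exact Clopper-Pearson 95% interval 1.98% to 25%) and at 3 of 27 in parental 2 (11.1%, 2.35% to 29.2%). It lay there at 3 of 77 in each TKO library (3.9%, 0.811% to 11%). Among all genes with a promoter peak the shares were 21.6% and 18.5% in parental 1 and 2 and 9.14% and 8.10% in TKO 1 and 2, so the MRP share was below that of all genes in each library. The TKO mean minus the parental mean was −6.35 percentage points (exact permutation p = 0.333, the smallest possible), and the TKO shares were lower over all genes as well. The genes were MRPL3, MRPL15 and MRPL45 in both parental libraries and MRPL3, MRPL45 and MRPL36 in both TKO libraries. The sequence at MRPL15 is not shown here. These intervals cover counting error only.

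MRPL36 was the only one of the 39 genes listed in TKO alone with an E-box this close to its TKO summit. The E-boxes of MRPL36 and MRPL45, chosen after the values were seen, are shown beside that of MRPL3 above.
MRPL36, chr5:1799990-1800019, minus strand, E-box: acgtgggcacgcCACGTGaccccccccccc
MRPL45, chr17:36452989-36453018, plus strand, E-box: cactcccgcgagCACGTGcgcgtcctcgct

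In TKO 1 the share with an E-box was 9.09% of the 22 genes with a peak in all 4 libraries and 2.56% of the 39 listed in TKO alone. The difference of 6.53 percentage points had a 95% Newcombe interval from −5.95 to 25.4, which the number of genes cannot narrow. Among all protein-coding genes of these patterns the shares were 21.2% and 5.74%. The variant CACGCG was near the summit at 14.3% and 11.7% of the MRP genes in TKO 1 and 2, against 10.1% and 9.5% of all genes with a peak. ETS matches were near it at 7.79% in both, against 3.07% and 3.4%, and the AP-1 motif TGANTCA, the binding site of Fos and Jun, at none of 77, for which the 95% interval reaches 4.68%, against 2.06% and 1.96% of all genes with a peak.

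YY1 is a zinc-finger factor whose motif often spans the start of transcription or translation. AAGATGGCG was within 50 bp of the summit at 6 of 77 MRP genes in each TKO library (7.79%, 2.91% to 16.2%), against 1.44% and 1.21% of all genes with a peak. In TKO 1 these were MRPL22, MRPL36, MRPL50, MRPS10 and MRPS24, listed in TKO alone, and MRPL52. In TKO 2 they were MRPL22, MRPL36, MRPL46, MRPL50, MRPS10 and MRPS11, of which MRPL46 and MRPS11 have the same peak, so the 6 genes stand for 5 summits and the interval counts that summit at both genes. None of the 22 genes with a peak in all 4 libraries had it near a TKO summit (95% interval up to 15.4%), against 1.63% and 1.57% of all genes of that pattern in TKO 1 and 2. The 6 matches in TKO 1, chosen after the values were seen, are shown because they recur at similar places, with the match in capitals. They were centred between 56 bp upstream and 27 bp downstream of a TSS of the gene. At MRPL22 and MRPL36 this TSS was not the one nearest to the TKO 1 summit.
MRPL22, chr5:154320658-154320687, plus strand: gggagggcgaAAGATGGCGgcggcagtact
MRPL36, chr5:1799969-1799998, minus strand: cccccccccgcCGCCATCTTccttcctggc
MRPL50, chr9:104160859-104160888, minus strand: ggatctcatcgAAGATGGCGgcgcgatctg
MRPL52, chr14:23299022-23299051, plus strand: acccagattcAAGATGGCGacttcctgctt
MRPS10, chr6:42185572-42185601, minus strand: tcgggaccggcAAGATGGCGgcgcggacag
MRPS24, chr7:43909079-43909108, minus strand: ccgcttggcccAAGATGGCGgcctccgtgt

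In 5 of them the letters read AAGATGGCG in the direction of the gene, and at MRPL36 the reverse complement does.

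The promoters themselves were compared with those of all genes, whatever Myc did there. Within 250 bp of the main TSS of each gene, the E-box was found at 14.1% of the 78 MRP genes, against 11.0% of all protein-coding genes, and the variant CACGCG at 33.3% against 21.5%. ETS was found at 17.9% against 6.54%, NRF1 at 25.6% against 12.3%, YY1 at 17.9% against 3.53% and AP-1 at 3.85% against 7.49%. NRF1 is a known activator of nuclear genes for mitochondrial proteins, and the ETS family holds another, GABP. A match is a run of letters and not a measured site.

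CpG content moved with these shares. The CpG ratio was over 0.6 at 77 of the 78 MRP genes (98.7%) and at 68.3% of all protein-coding genes. Among the 13521 genes with a ratio over 0.6 the shares were 12.9% for the E-box, 29.7% for the variant, 9.13% for ETS, 17.6% for NRF1, 4.9% for YY1 and 3.99% for AP-1. Myc promoter peaks were found at 17%, 17.5%, 65.7% and 66.4% of those genes in parental 1, parental 2, TKO 1 and TKO 2, against 41%, 34.6%, 98.7% and 98.7% of the MRP genes. The MRP shares with a peak were thus above those of genes with a CpG ratio over 0.6 as well. That set was made by a cutoff and was not matched to the MRP genes in CpG content.

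The MRP genes with a peak in all 4 libraries had the variant within 250 bp of the TSS at 54.5% and the E-box at 27.3%. Those listed in TKO alone had them at 25.6% and 12.8%. The 15 genes with a peak in 1 parental library had the variant at 26.7% and the E-box at 0%, so the E-box shares did not follow the order of the patterns. YY1 was at 9.09% of the genes with a peak in all 4 libraries, 20% of the 15 and 20.5% of those listed in TKO alone. These shares rest on 22, 15 and 39 genes and were not tested. The shares over all genes of the same patterns are not given here, so a difference particular to the MRP genes is not shown.

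**Figure D5:**
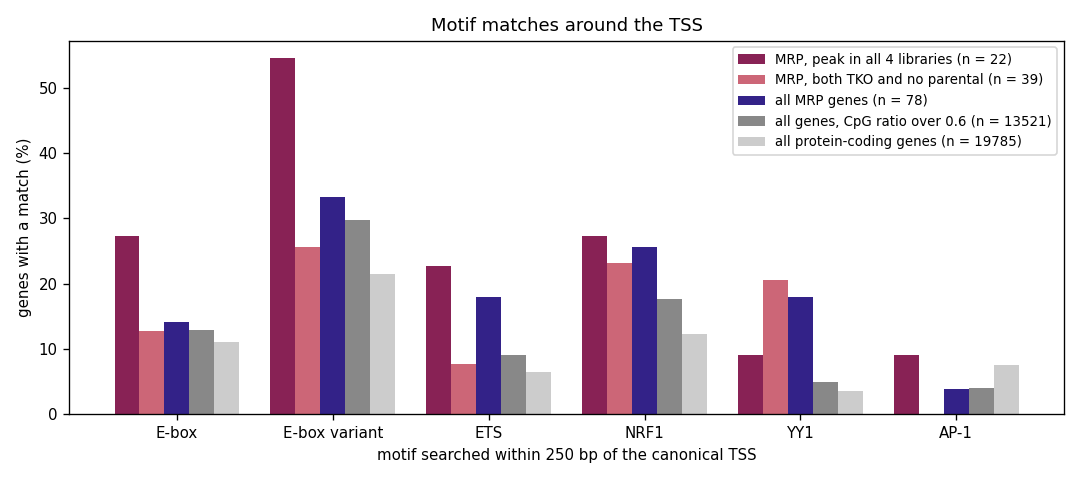
Share of genes (y axis, percent) with a match to each of 6 motifs (x axis) within 250 bp of the main TSS. Bars stand for the 22 MRP genes with a peak in all 4 libraries, the 39 listed in both TKO libraries alone, all 78, the 13521 genes with a CpG ratio over 0.6 and all 19785 protein-coding genes. The YY1 bar of all MRP genes is at 17.9%, against 4.9% and 3.53% for the last 2 sets, and the E-box bar at 14.1% is near 12.9% and 11.0%.

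Genes that work with the mitochondrial ribosome under other symbols were listed in the same way. Of 5 of its proteins without an MRPL or MRPS symbol, 1 and 2 had a promoter peak in parental 1 and 2 and 5 in each TKO library. These were 20%, 40%, 100% and 100% of the list, against 12.2%, 12.9%, 49.1% and 49.7% of all protein-coding genes. PTCD3, a pentatricopeptide repeat protein of the small subunit, had one in all 4, with 1.85, 2.03, 5.67 and 8.21 reads per M. DAP3, a GTP-binding protein of the small subunit, had 0.901 in parental 2, none in parental 1 and 2.51 and 2.76 in TKO. CHCHD1, AURKAIP1 and GADD45GIP1 had a peak in TKO alone, with CHCHD1 at 1.65 and 2.45 reads per M.

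Of 13 mitochondrial translation factors, 4 and 6 had a promoter peak in parental 1 and 2, and 13 and 12 in TKO 1 and 2. The shares were 30.8%, 46.2%, 100% and 92.3%, again against 12.2%, 12.9%, 49.1% and 49.7% of all genes. MTRFR, a ribosome rescue factor, had peaks in all 4 libraries, with 1.67, 1.49, 3.51 and 4.53 reads per M. TUFM, the mitochondrial elongation factor Tu, had none in parental cells and 2.01 and 2.07 in TKO. MTRF1, a release factor, was listed in TKO 1 alone with 0.953 reads per M.

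Of 26 factors that assemble the mitochondrial ribosome or modify its RNA, 11 had a promoter peak in each parental library, and 24 and 26 had one in TKO 1 and 2. In the same order these were 42.3%, 42.3%, 92.3% and 100%, where all genes had 12.2%, 12.9%, 49.1% and 49.7%. MRM1, an RNA methyltransferase, had the highest parental percentiles of them, at 94.8 and 95.6, and 2.19, 2.16, 6.47 and 7.06 reads per M. MPV17L2 and RCC1L had a peak in TKO 2 alone, with 1.07 and 0.997 reads per M. Each of the 44 genes of these 3 lists had a peak in at least 1 library, whereas 46.3% of all genes had one in none.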

How the data were processed

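Myc ChIP-seq libraries were single-end. Per the labels and the study's methods, the authors aligned reads to hg19 with Novoalign 3.08.02 and called peaks in each library with MACS2 2.1.1.20160309 against input chromatin. How duplicates were treated is not given in the sources used here. The deposited lists give each peak's fold enrichment (a ratio, summit reads over the local background), the −log10 p-value and −log10 q-value (at least 2.03 in these lists), and an integer score made by the authors' peak caller from the q-value. The 2 input samples were not analysed here.

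Summit reads, local background and depth were solved from the authors' fold and −log10 p-value. Whole reads gave the −log10 p-value to within 0.002 for 100% of peaks, against 11.3% to 14.3% at a scale set wrong on purpose. Depth assumes a genome of 2700000000 bases and an extension equal to the narrowest peak, so reads per M depend on both. Peaks were assigned to 55868 TSSs of basic protein-coding transcripts (GENCODE v44 lifted to GRCh37) within 1 kb of the summit, and each gene took its peak of highest fold. Sequences and motifs were read from GRCh37 on both strands.

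Library values were tested by exact permutation, two-sided, over the 6 groupings of 2 against 2. The study calls the 2 libraries of a cell line biological replicates, and the labels name no separate cultures. No gene-set test was made, and shares stand beside those of all genes. Alternatives were other TSS windows and start sites, stricter peaks, lists of 3720 peaks, other motif windows, reads scaled otherwise, each library left out and a replicate block. The genes given singly were the 10 of highest and 6 of lowest mean percentile with a peak in all 4 libraries, the 8 highest and 4 lowest listed in TKO alone, the 4 highest with a peak in 1 parental library, and those absent from a TKO list. Others are named for a rank, a shared promoter or a motif. The genes and lists were chosen with earlier results of these data known. Software was samtools 1.23.1, pysam 0.24.0, scipy 1.17.1, numpy 2.4.6 and pandas 2.3.3 under Python 3.11.15, and the steps were tested on simulated data.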

Additional observations from a re-analysis of the deposited data

How the results depend on the processing

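The lists can show a promoter only where a peak passed the authors' threshold, and 1 peak list per library carries no reads for the other promoters, so absence from a parental list is not absence of Myc. With 2 libraries a group no permutation test could pass. Of 99 repeats under other settings, 87 stayed within the limit set for their kind of value, namely 1.5 times for a count or a ratio, the spread between replicates for a difference between cell lines and the 95% interval for a difference between gene groups. Those limits are wide for some values. The MRPL-minus-MRPS difference without parental 1, at −10.8 percentage points, lay inside its 95% interval of −20.1 to 19.9. Its sign had changed from the reported 0.985, and it was not counted among the 87. The ratio of median summit reads, 2.44 as reported, was 1.65 without division by depth and 1.85 at the shortest extension length. The E-box difference between the 22 genes and the 39, 6.53 percentage points as reported, was 15.7 with motifs within 250 bp. With lists of equal length the ratio of TKO to parental MRP genes with a peak was 1.4, the genes listed in both TKO libraries alone were 6, the difference in median percentile reversed to −0.938 and the difference in E-box share was −5.36 percentage points. Shorter lists hold fewer promoters by construction. A fold of at least 5 left 11 genes with a peak in both parental libraries. The difference in E-box share was −8.05 percentage points at a −log10 q-value of at least 5 and −3.75 with motifs within 100 bp. Without genes that have a neighbour within 1 kb, a setting chosen after seeing the data, it was −12.2 and 23 genes were listed in TKO alone, of 45 genes in place of 78. The cause of the E-box shifts was not tested.

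Leaving out each library in turn gave a ratio of TKO to parental genes between 2.41 and 2.85. The difference in E-box share was then between −7.22 and −5.48 percentage points. The MRPL-minus-MRPS difference ran from −10.8 (without parental 1) to 15.9 (without parental 2). Replicate numbers are shared by the groups, but the labels do not state whether same-numbered libraries were prepared together. The mean correlation of deviations between same-numbered libraries was 0.0706 over the 22 genes. It cannot decide whether the libraries are paired, since genes are not replicates. With the replicate block the ratio was 2.62, and the block changed no other value by more than the spread between replicates.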
